A study of Mus musculus with 2 samples.

Results

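The collagen genes described here are 42 of the 32285 genes counted, chosen by symbol as every gene named Col, a number, the letter a and a number, except *Col7a1* and *Col17a1*. Their counts were followed across the cell types of mouse palatal gingiva in 2 single-cell RNA-sequencing (scRNA-seq) libraries. Both came from female C57BL/6 mice aged 8 to 12 weeks, wild type and of the J substrain per the study's methods. The palate received 3 µl of a 1 µg/ml solution, either of CpG ODN, an unmethylated DNA oligonucleotide and ligand of TLR9, or of LPS from *P. gingivalis*, a ligand of TLR2 and TLR4. An oral appliance covered the palate for 1 h and the gingiva was harvested on Day 4. Equal numbers of dissociated cells from 4 mice were pooled for each ligand into 1 library, so the mice cannot be told apart, there is no replicate, and no test between the ligands was possible. Every interval given is a 95% interval that covers counting error only. Gingiva without either ligand was not analysed here. The dissociation used collagenase II and then trypsin, and cells that such digestion releases poorly would be under-represented.

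Collagens are the main structural proteins of the gingival connective tissue. Collagen chains wind into a triple helix inside the cell, and after secretion the fibril-forming types (I, II, III, V, XI, XXIV and XXVII) assemble into fibrils, type IV forms the network of basement membranes, type VI forms beaded filaments, and the fibril-associated types decorate the fibril surface. Type VIII and type X are short-chain collagens that form networks, types XV and XVIII (multiplexins) sit at basement membranes and release fragments such as endostatin, and types XIII, XXIII and XXV span the plasma membrane. Fibroblasts make most fibrillar collagen, whereas epithelial, endothelial, mural (pericytes and vascular smooth muscle) and Schwann cells sit on basement membranes.

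The deposited values are counts of unique molecular identifiers (UMIs), 1 for each captured RNA molecule. Barcodes on which 800 or more genes were detected were kept as cells, 4888 of 6219 barcodes in the CpG ODN library and 1277 of 2016 in the LPS library, with a median of 11077.5 and 22680 UMIs per cell. The libraries shared 5 barcodes, of which 1 was among the cells kept in both. Cells were clustered without the collagen genes and classes were named, as "-like", from marker lists. Fibroblast-like cells numbered 238 (4.87% of cells) after CpG ODN and 54 (4.23%) after LPS, and 16 of 16 fibroblast markers were at least 2 times higher in them than in other cells in both libraries. The same lists named the classes, so such marker counts describe a class and are not an independent check of its name. Where values are given in pairs, the first is for CpG ODN and the second for LPS. The median depth of fibroblast-like cells was 4084.5 and 8769.5 UMIs per cell. The summed level of 16 epithelial markers in them was 9044 and 4048 per 1000000 UMIs, and that of 12 mural markers 373.6 and 1249, which differ between the libraries.

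Fibroblast-like cells held most of the RNA of the 42 collagen genes. *Col7a1* and *Col17a1* are in none of the collagen sums and shares given here. Of 42941 collagen UMIs in the CpG ODN cells, 33367 were in fibroblast-like cells (77.7%, 77.3 to 78.1%), and of 15388 in the LPS cells, 10877 were (70.7%, 70.0 to 71.4%), although these cells carried 1.62% and 1.34% of all UMIs. The level of a gene in a class is given as its UMIs summed over the cells, per 1000000 UMIs of those cells (CPM). Counts come from the 3′ end of each molecule and were not divided by gene length. Summed over all members, the level was 29126 CPM (28814 to 29440) after CpG ODN and 21849 CPM (21440 to 22263) after LPS in fibroblast-like cells. Schwann-like cells came next with 3616 and 3899 CPM, followed by mural-like cells with 2334 and 2368 and endothelial-like cells with 1603 and 1876. The fibroblast-like sum includes 13 cells led by keratin genes (sub-cluster 6 below), with a median of 17837 UMIs per cell. Collagen took only 0.801% and 0.370% of their UMIs, which lowers the summed fibroblast-like level. Epithelial-like cells had 115.6 and 98.6 CPM, but as 75.35% and 76.35% of all cells they still held 17.0% and 21.7% of the collagen UMIs. B-like cells, which should lack collagen, had 19.3 CPM in 283 cells and 12.7 CPM in 69 cells. These levels served as the background of free RNA in droplets, although B-like cells also held fewer UMIs per cell (median 2149 and 3157).

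Of the 42 genes, 40 had a UMI in the cells kept and *Col6a4* and *Col22a1* had 0. The 11 fibril-forming genes had 40267 UMIs over both libraries, 94.98% of them in fibroblast-like cells. Of the 6 type VI genes, 5 were detected with 4057 UMIs, 78.1% of them in fibroblast-like cells, and 8 of the 9 fibril-associated genes had 1785 UMIs, 64.7% of them there. The other groups had most of their UMIs outside fibroblast-like cells, which held 1.62% and 1.34% of all UMIs. The share in fibroblast-like cells was 31.7% of 375 UMIs for the 3 transmembrane genes, 20.1% of 3005 for the 6 type IV genes, 20.0% of 3084 for the 2 multiplexins and 5.86% of 5718 for the 3 short-chain genes. Single members differed from their group, with 79.2% and 80.2% of the *Col15a1* UMIs and 95.9% and 96.4% of the *Col8a2* UMIs in fibroblast-like cells. *Col26a1* and *Col28a1* together had 38 UMIs. The members with 253 or fewer UMIs over both libraries were *Col23a1* (253), *Col11a1* (251), *Col5a3* (213), *Col27a1* (148), *Col6a6* (96), *Col8a2* (77), *Col13a1* (76), *Col25a1* (46), *Col9a3* (43), *Col10a1* (40), *Col11a2* (32), *Col4a4* (30), *Col28a1* (29), *Col9a2* (25), *Col20a1* (22), *Col6a5* (18), *Col24a1* (12), *Col26a1* (9), *Col2a1* (6), *Col9a1* (4), *Col19a1* (2) and *Col4a3* (2). Of the chains known from cartilage, *Col2a1* and *Col9a1* were thus close to 0. Others had more UMIs, namely *Col11a1* (251), *Col9a3* (43), *Col10a1* (40), *Col11a2* (32) and *Col9a2* (25).

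**Figure D1:**
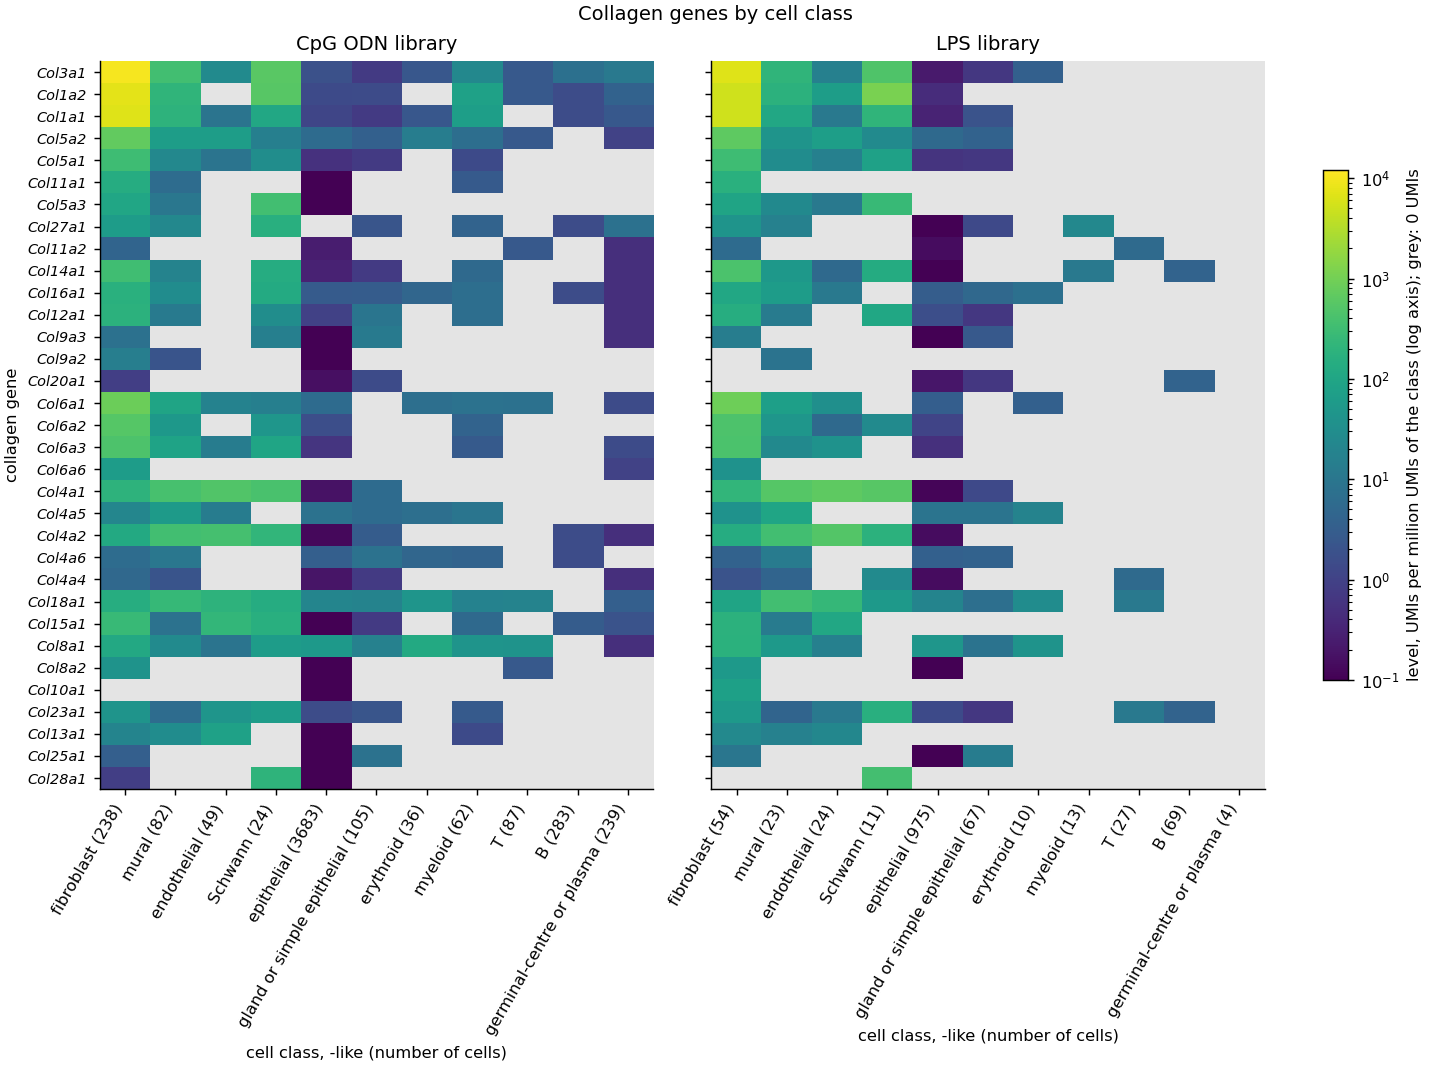
Level of the 33 collagen genes with at least 20 UMIs over both libraries, in UMIs per 1000000 UMIs of the class on a logarithmic colour scale whose lowest colour also stands for levels under its lower end, in the CpG ODN library (left) and the LPS library (right). Columns are cell classes with their number of cells, rows are genes ordered by collagen group, and grey marks 0 UMIs. *Col1a1*, *Col1a2* and *Col3a1* are brightest in fibroblast-like cells, *Col4a1* and *Col4a2* in endothelial-like, mural-like and Schwann-like cells, and *Col28a1* is seen in Schwann-like cells.

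The sequences before the start of 4 members are shown, chosen after their values were seen, as examples from 3 classes: *Col3a1* as the most counted member in fibroblast-like cells, *Col8a1* and *Col4a5* as members counted in epithelial-like cells, and *Col28a1* as a member counted almost only in Schwann-like cells. They are RefSeq promoter windows on GRCm38.p6 cut so that they hold no base of an annotated exon, written 5′ to 3′ on the strand of the gene. Capitals mark a TATAAA or CCAAT match. In *Col3a1* the TATAAA begins 117 bases before the annotated start. The *Col4a5* window ends 34 bases before the RefSeq start and its CCAAT begins 196 bases before that start.
Col3a1, chr1:45311288-45311537, plus strand: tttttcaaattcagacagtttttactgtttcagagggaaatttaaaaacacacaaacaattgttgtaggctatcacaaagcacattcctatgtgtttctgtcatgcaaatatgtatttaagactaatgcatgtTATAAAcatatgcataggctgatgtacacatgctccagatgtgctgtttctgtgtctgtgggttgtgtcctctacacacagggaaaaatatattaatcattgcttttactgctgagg
Col8a1, chr16:57754738-57754987, minus strand: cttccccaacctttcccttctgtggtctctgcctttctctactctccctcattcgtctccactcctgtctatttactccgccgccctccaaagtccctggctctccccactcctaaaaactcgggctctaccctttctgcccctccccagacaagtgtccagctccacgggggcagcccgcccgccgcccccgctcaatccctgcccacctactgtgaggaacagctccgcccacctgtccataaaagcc
Col4a5, chrX:141475169-141475384, plus strand: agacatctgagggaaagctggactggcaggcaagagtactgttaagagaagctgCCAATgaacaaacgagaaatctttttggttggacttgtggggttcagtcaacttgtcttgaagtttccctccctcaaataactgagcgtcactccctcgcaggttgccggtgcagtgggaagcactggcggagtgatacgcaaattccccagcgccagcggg
Col28a1, chr6:8192618-8192867, minus strand: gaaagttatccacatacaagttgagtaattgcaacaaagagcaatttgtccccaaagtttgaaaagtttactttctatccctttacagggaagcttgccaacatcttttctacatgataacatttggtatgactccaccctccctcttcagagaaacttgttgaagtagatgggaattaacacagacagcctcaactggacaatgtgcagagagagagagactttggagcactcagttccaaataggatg
Both motifs were searched on both strands in the 250 bases before each start. CCAAT was found for 10 of the 33 members with a window (30.3%) and for 34.5% of 27025 windows of all genes. TATAAA was found for 4 of 33 (12.1%), *Col3a1*, *Col10a1*, *Col11a2* and *Col13a1*, and for 13.0% of all. Of the type IV genes, *Col4a1* and *Col4a2*, and likewise *Col4a5* and *Col4a6*, face away from each other in the RefSeq annotation. The starts of *Col4a1* and *Col4a2* on chromosome 8 are 21 bases apart, with the annotated 5′ ends overlapping. Those of *Col4a5* and *Col4a6* on chromosome X are 1343 bases apart, with a gap between them. *Col4a3* (plus strand, from 82586921) and *Col4a4* (minus strand, to 82586849) on chromosome 1 also face away from each other in GENCODE.

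The 3 most counted members encode the chains of type I and type III collagen. *Col3a1* (chromosome 1, 45311538 to 45349706 of GRCm38, as for all coordinates here) had 10059 CPM (9876 to 10244) in fibroblast-like cells after CpG ODN and 6655 CPM (6430 to 6885) after LPS. *Col1a2* (chromosome 6, 4504814 to 4541544) had 7346 and 5176 CPM, and *Col1a1* (chromosome 11, 94936224 to 94953042) had 6696 and 5086 CPM. Together they made up 82.8% and 77.4% of the collagen UMIs of fibroblast-like cells. Outside them, *Col3a1* had 341.7 and 211.3 CPM in mural-like and 600.1 and 474.1 CPM in Schwann-like cells, and 7.41 CPM (2.41 to 17.3) and 0 UMIs, which allows up to 12.7 CPM, in B-like cells. A *Col1a1* UMI was found in 229 of 238 and 51 of 54 fibroblast-like cells, and in 1 of 283 and 0 of 69 B-like cells. Among the myeloid-like cells after CpG ODN, a single cell of 9530 UMIs held 50 of the 51 *Col1a1* UMIs and 60 of the 60 *Col1a2* UMIs of that class, so these levels rest on 1 barcode.

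Among the other fibril-forming genes, *Col5a2* and *Col5a1*, whose chains set the diameter of type I fibrils, had 730.6 and 316.0 CPM in fibroblast-like cells after CpG ODN and 666.9 and 315.4 CPM after LPS. *Col11a1*, better known from cartilage, had 139.7 and 170.7 CPM, with 96.4% and 100% of its UMIs in fibroblast-like cells. *Col5a3* had 103.0 and 92.4 CPM in fibroblast-like cells but 347.4 CPM (22 UMIs) and 263.4 CPM (10 UMIs) in Schwann-like cells. The type VI genes were next in level. *Col6a1* had 878.1 and 922.0 CPM, *Col6a2* 543.8 and 460.0 CPM, and *Col6a3* 456.5 and 433.9 CPM. *Col6a6*, a chain that can take the place of the third chain of type VI, had 65.5 CPM (75 UMIs) and 38.2 CPM (19 UMIs), with 97.4% and 100% of its UMIs in fibroblast-like cells.

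Of the fibril-associated genes, *Col14a1* had 330.0 and 427.9 CPM in fibroblast-like cells, *Col12a1* 183.3 and 146.6 CPM, and *Col16a1* 164.1 and 112.5 CPM. *Col14a1* had 89.8% and 90.6% of its UMIs in fibroblast-like cells, against 46.1% and 29.5% for *Col16a1*, whose other UMIs lay largely in epithelial-like cells (185 and 107 UMIs). The multiplexins differed from each other. *Col15a1* had 266.2 and 186.8 CPM in fibroblast-like and 235.3 and 110.7 CPM in endothelial-like cells, but 2 and 0 UMIs in epithelial-like cells. *Col18a1*, the source of endostatin, had 149.3 and 94.4 CPM in fibroblast-like, 255.8 and 353.7 CPM in mural-like, and 20.7 and 19.6 CPM in epithelial-like cells, where 75.8% and 77.2% of its UMIs lay beside 89.35% and 91.1% of all UMIs.

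The class with the highest level was fibroblast-like for 18 of the 29 members with at least 20 UMIs in the CpG ODN library and for 20 of 26 in the LPS library. Over all genes with as many UMIs, fibroblast-like cells were highest for 10.6% and 15.2%. Only classes with at least 20 cells took part, which leaves out the 11 Schwann-like cells of the LPS library. In the CpG ODN library, Schwann-like cells were highest for 4 members (*Col5a3*, *Col23a1*, *Col27a1* and *Col9a3*; 17.2% of all genes) and endothelial-like cells for 3 (*Col4a1*, *Col4a2* and *Col13a1*; 14.4%). Mural-like cells were highest for *Col18a1*, *Col4a5* and *Col4a6* in both libraries, against 9.45% of all genes in the CpG ODN library and 18.0% in the LPS library. The lead of *Col4a6* rested on 5 and 3 UMIs. For *Col18a1* the mural-like intervals (212.4 to 305.4 and 281.3 to 439.0) overlapped the endothelial-like ones (141.9 to 262.2 and 176.9 to 326.9). Endothelial-like cells were highest for *Col4a1* and *Col4a2* in the LPS library (16.8% of all genes) and gland or simple epithelial-like cells for *Col25a1* (10.9%). *Col8a1* was highest in the erythroid-like cells after CpG ODN (4.54% of all genes), at 120.5 CPM (89.7 to 158.4) beside 118.7 CPM (99.6 to 140.4) in fibroblast-like cells. Those intervals overlap. The 36 erythroid-like cells also carried 16 of 16 epithelial markers, at a summed level of 51618 CPM beside 71946 CPM in epithelial-like cells, and their part in the *Col8a1* level was not tested.

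The type IV genes differed in where they were counted. *Col4a1* and *Col4a2* encode the chains of most basement membranes. *Col4a1* had 510.5 and 669.7 CPM in endothelial-like, 404.6 and 552.0 in mural-like, 426.4 and 579.5 in Schwann-like and 196.4 and 216.9 in fibroblast-like cells, and *Col4a2* had 372.9 and 514.7, 352.2 and 353.7, 221.1 and 184.4, and 121.3 and 142.6 CPM in the same order. The intervals of *Col4a1* in endothelial-like and mural-like cells overlapped in both libraries, whereas those of fibroblast-like cells lay below both. In epithelial-like cells they were nearly missing, with 11 and 4 UMIs of *Col4a1* in 3683 and 975 cells. The X-linked *Col4a5*, mutated in Alport syndrome, and its neighbour *Col4a6* were counted there. Epithelial-like cells held 87.5% and 83.5% of the 592 and 363 *Col4a5* UMIs, less than their 89.35% and 91.1% of all UMIs, at 8.22 CPM (7.52 to 8.96) and 8.95 CPM (7.97 to 10.0), and 217 and 120 UMIs of *Col4a6*. The ratio of *Col4a5* to *Col4a6* UMIs in these cells was 2.39 (2.03 to 2.81) and 2.53 (2.04 to 3.15). Levels of *Col4a5* were higher in mural-like cells, 58.7 and 94.9 CPM from 28 and 22 UMIs, and in fibroblast-like cells, 21.8 and 38.2 CPM from 25 and 19 UMIs. *Col4a3* and *Col4a4*, the partners of *Col4a5* in kidney, had 2 and 30 UMIs in all.

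Schwann-like cells were few, 24 and 11 cells, and 9 and 8 of the 10 markers on the list that named them were at least 2 times higher. *Col28a1*, a collagen known from peripheral nerve, had 13 UMIs in 6 of these cells in the CpG ODN library (205.3 CPM, 109.3 to 351.0) and 14 UMIs in 6 cells in the LPS library (368.8 CPM, 201.6 to 618.8). Elsewhere it had 2 UMIs in the CpG ODN library, 1 in a fibroblast-like and 1 in an epithelial-like cell, and 0 in the LPS library. *Col1a2* had 568.5 CPM (36 UMIs in 15 cells) and 1159 CPM (44 UMIs in 10 cells), while *Col1a1* had only 110.5 CPM (7 UMIs) and 210.7 CPM (8 UMIs). The *Col1a1* to *Col1a2* ratio was thus 0.194 (0.0730 to 0.443) and 0.182 (0.0739 to 0.391) in Schwann-like cells, against 0.912 (0.884 to 0.940) and 0.983 (0.930 to 1.04) in fibroblast-like cells. Mural-like cells had ratios of 0.921 (0.687 to 1.23) and 0.619 (0.364 to 1.03). The intervals of Schwann-like and fibroblast-like cells did not overlap in either library. Of the 16 fibroblast markers, 9 and 10 were at 0 in Schwann-like cells, at a summed level of 1658 and 1739 CPM beside 40872 and 46403 CPM in fibroblast-like cells.

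*Col8a1* (chromosome 16, 57624258 to 57754737, minus strand), a short-chain collagen of endothelial and corneal matrices, was the most counted of the 42 collagen genes in epithelial-like cells. *Col7a1* and *Col17a1*, left out by the choice of genes, took no part in that ranking. These cells held 3605 of its 3881 UMIs in the CpG ODN library (92.9%) and 1594 of 1720 in the LPS library (92.7%), close to their 89.35% and 91.1% of all UMIs, at 57.2 CPM (55.3 to 59.1) and 47.1 CPM (44.8 to 49.5). A UMI was found in 50.04% of 3683 and 56.8% of 975 epithelial-like cells, and in 0 of 283 and 0 of 69 B-like cells, which allows levels of up to 4.45 and 12.7 CPM. With each cell thinned to 1500 UMIs the epithelial shares were 9.17% and 7.85%, beside 8.18% and 13.5% in fibroblast-like cells, for an unthinned median depth of 13190 and 27213 UMIs in epithelial-like cells. In the CpG ODN library T-like cells also had 15 UMIs (40.0 CPM), from 6 of 87 cells, and myeloid-like cells 31 UMIs (42.0 CPM), whereas both classes had 0 after LPS. Epithelial markers moved with these counts in myeloid-like cells, at 46446 and 323.1 CPM, and were at 19623 and 11382 CPM in T-like cells, and their part was not tested. The partner chain *Col8a2* had 1 UMI in the epithelial-like cells of each library, while in fibroblast-like cells the *Col8a1* to *Col8a2* ratio was 2.89 (2.06 to 4.12) and 3.19 (2.05 to 5.11). Against *Col1a1*, the *Col8a1* ratio was 50.1 (39.7 to 64.1) and 144.9 (80.8 to 290.9) in epithelial-like cells and 0.0177 and 0.0340 in fibroblast-like cells. The composition of epithelial-like collagen UMIs therefore differed from that of fibroblast-like cells by far more than counting error.

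The same held for other members in epithelial-like cells. *Col5a2* exceeded *Col5a1* by 10.97 times (7.71 to 16.1) and 9.35 times (5.88 to 15.7), against 2.31 (2.04 to 2.62) and 2.12 (1.74 to 2.57) in fibroblast-like cells. *Col6a1* exceeded *Col6a3* by 9.62 times (6.90 to 13.7) and 6.71 times (4.01 to 11.9), against 1.92 and 2.13. By contrast, the *Col3a1* to *Col1a1* ratio of epithelial-like cells after CpG ODN was 1.60 (1.18 to 2.18), beside 1.502 (1.46 to 1.55) in fibroblast-like cells. Those fibrillar UMIs were few, 115 for *Col3a1* and 72 for *Col1a1* in the CpG ODN library and 8 and 11 in the LPS library. In the CpG ODN library their levels were highest in the cluster led by the cornified layer genes *Lor* and *Sprr3*, at 10.9 and 4.04 CPM.

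Epithelial-like cells fell into 14 clusters, and several members were graded across them in both libraries. *Col8a1* had its highest level in the cluster led by *Pappa*, *Hpgd* and *Ccnd2*, 111.0 CPM (100.4 to 122.3) and 98.9 CPM (84.9 to 114.6). It was lowest in the cluster led by *BC037156* and *Odam*, with 8.04 and 5.61 CPM, and low in those led by *Krt4* and *Krt23* (8.14 and 11.04) and by *Lor* and *Sprr3* (12.7 and 7.02). *Col18a1* had 73.6 and 73.2 CPM in the *Pappa* cluster and 72.5 and 77.8 CPM in the cluster led by *Igfbp3* and *Prxl2a*, among whose leading genes were also *Krt5* and the integrins *Itgb4* and *Itga6*, known from basal cells. At the other end, it had 0.931 and 0 CPM in the *Lor* cluster. *Col4a5* ran from 17.3 and 17.3 CPM in the *Pappa* cluster to 0.931 and 0.739 CPM in the *Lor* cluster. *Col5a2* had 23.1 and 31.3 CPM in the *Pappa* cluster and 0.443 CPM in the cluster led by *Cryba2*, *Krt10* and *Crnn*. *Col4a6*, *Col16a1* and *Col23a1* were also highest in the *Pappa* cluster in both libraries, at 12.9 and 16.8, 16.2 and 16.2, and 11.3 and 8.94 CPM. *Col8a1* differed from these in keeping 93.4 and 78.3 CPM in a cluster led by the chemokine gene *Cxcl1* and *Icam1*, where *Col18a1* had 7.90 and 10.7 CPM.

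**Figure D2:**
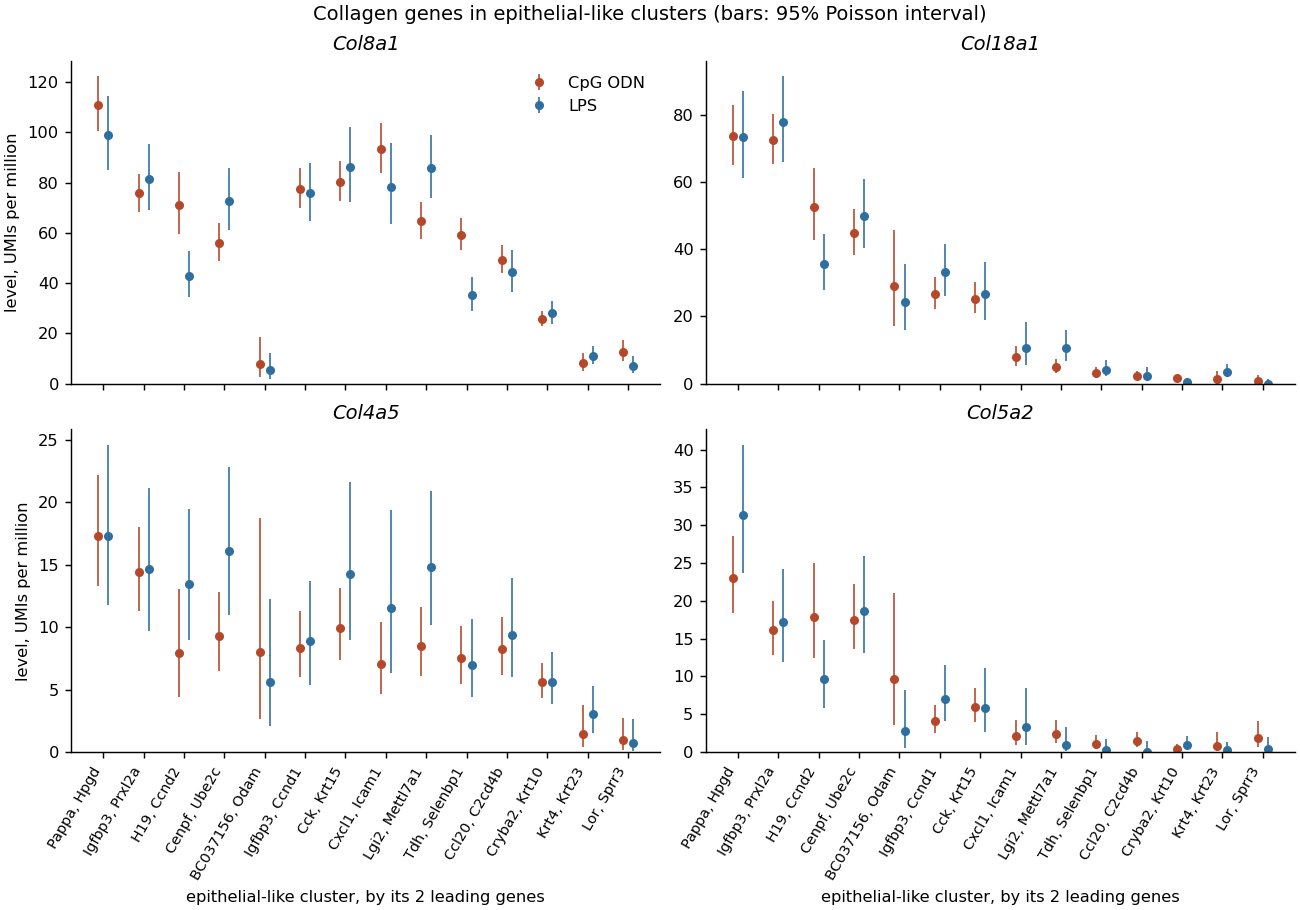
Level of 4 collagen genes (y axis, UMIs per 1000000 UMIs of the cluster) in the 14 epithelial-like clusters (x axis, named by their 2 leading genes), with the CpG ODN library in red and the LPS library in blue. Points are summed levels and bars are exact Poisson intervals (95%). *Col4a5* and *Col5a2* are highest in the cluster led by *Pappa* (17.3 and 17.3, and 23.1 and 31.3), and *Col8a1* is there too (111.0 and 98.9) but also reaches 93.4 and 78.3 in the cluster led by *Cxcl1*.

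Some further members were counted in few cells. *Col13a1*, a transmembrane collagen of cell adhesion, had 79.9 CPM in the endothelial-like cells after CpG ODN, but its 18 UMIs came from 4 of 49 cells and 10 of them from 1 cell, and it had 4 UMIs (22.1 CPM) after LPS. Mural-like cells held 14 and 4 of its UMIs and fibroblast-like cells 22 and 12. A mural-like cluster of 11 and 7 cells led by *Cnn1*, *Pcp4* and *Acta2*, genes of smooth muscle, had 618.7 and 586.4 CPM of *Col4a1*, 7 and 3 UMIs of *Col1a2* (160.4 and 47.5 CPM) and 0 UMIs of *Col1a1* and *Col3a1*, whose intervals reach up to 84.5 and 58.5 CPM. *Col25a1*, a transmembrane collagen known from motor neurons and muscle, had 11 and 21 UMIs in the gland or simple epithelial-like cluster led by *Wfdc18* and *Reg3g*, against 4 and 1 UMIs in the epithelial-like cells. *Col9a3* had 15 UMIs in the same cluster of the CpG ODN library and 3 in that of the LPS library.

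Between the ligands, the summed collagen level of fibroblast-like cells was 1.33 times higher in the CpG ODN library (1.30 to 1.36), and the difference lay mostly in the fibrillar genes. The fibril-forming genes summed had 25471 and 18211 CPM, a ratio of 1.40 (1.37 to 1.43), and the multiplexins 415.5 and 281.2 CPM, a ratio of 1.48 (1.22 to 1.797). Type VI and fibril-associated genes had ratios of 1.05 (0.975 to 1.14) and 1.00 (0.884 to 1.14), so a difference was not detectable for them at this depth. The sums of type IV and transmembrane genes also had intervals that held 1, at 0.871 (0.734 to 1.04) and 0.741 (0.504 to 1.10). The short-chain genes had a ratio of 0.523 (0.420 to 0.653), partly from *Col10a1*, a collagen of hypertrophic cartilage, whose 39 UMIs in the LPS library all lay in 1 fibroblast-like cell of 7177 UMIs. The summed ratio stayed above 1 in 13 of 13 alternatives, from 1.20 to 1.60, and was 1.29 without cells of over 2% keratin UMIs. Of these alternatives, Leiden resolutions of 0.5 and 2.0 left the numbers of fibroblast-like cells unchanged. The part that the unequal mural markers of the fibroblast-like cells had in the summed ratio was not tested. Markers of bone or cartilage summed to 300.3 and 74.3 CPM in these cells, with 1 and 5 of 8 at 0, and their part was not tested either. No value covers the spread between mice.

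Single genes were called different where they had at least 50 UMIs in fibroblast-like cells over both libraries together, a ratio at least 1.5 times away from 1 and an interval that does not hold 1. Of the 22 members with enough UMIs, 3 were called higher in the CpG ODN library, beside 5.23% of all 4514 genes, and 0 were called lower, beside 4.65%. The median log2 ratio was 0.14 over the members and 0.00 over all genes. *Col3a1* had a ratio of 1.51 (1.45 to 1.57), *Col18a1* 1.58 (1.14 to 2.23) and *Col6a6* 1.72 (1.03 to 3.01). The call of *Col3a1* lies at the limit, and was lost under 6 alternatives, 5 of them with ratios from 1.37 to 1.49 and 1 a limit of 2-fold. With at least 1200 detected genes per cell, or with each library clustered on its own, 0 members were called higher. Just inside and outside the fold were *Col3a1* and *Col16a1*, at 1.51 and 1.46 (1.08 to 2.003). *Col1a2* and *Col1a1* had intervals above 1 with ratios of 1.42 (1.36 to 1.48) and 1.32 (1.26 to 1.38), as did *Col15a1* with 1.43 (1.13 to 1.82) and *Col6a2* with 1.18 (1.01 to 1.38). Below 1 lay *Col8a1*, with a ratio of 0.687 (0.521 to 0.911), and *Col14a1*, with 0.771 (0.650 to 0.917). The intervals of 12 members held 1, among them *Col6a1* (0.852 to 1.07), *Col5a2* (0.964 to 1.25) and *Col5a1* (0.829 to 1.22).

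**Figure D3:**
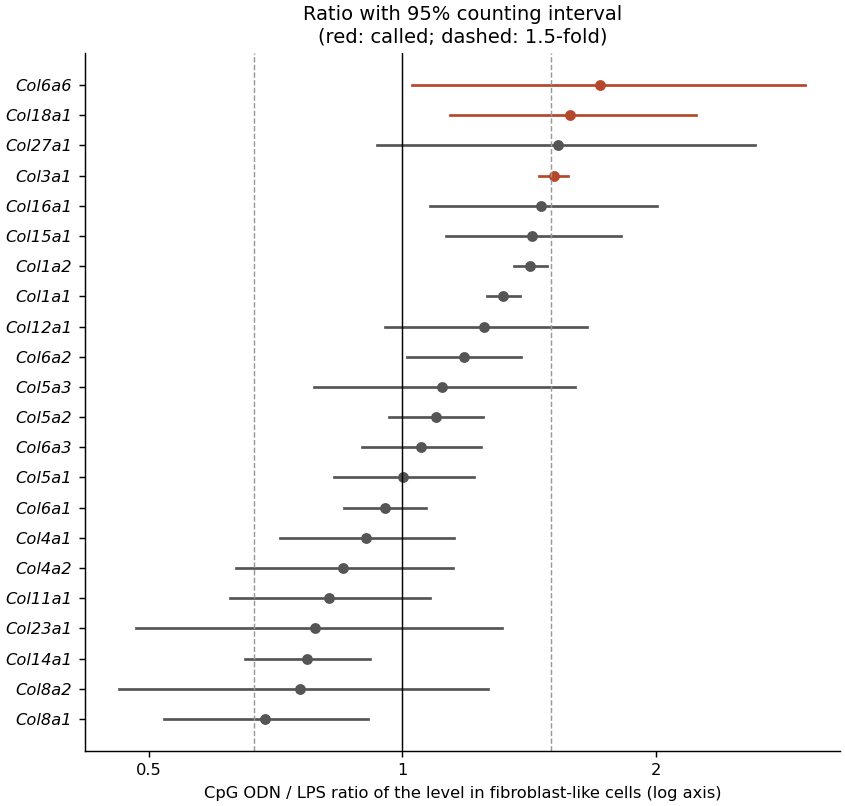
Ratio of the level in the CpG ODN library to that in the LPS library (x axis, logarithmic) for the 22 collagen genes with at least 50 UMIs in fibroblast-like cells, with the interval (95%) from counting. Red marks the 3 genes called and the dashed lines mark 1.5-fold in either direction. Genes of type I, III, XV, XVI and XVIII collagen lie to the right of 1, *Col8a1* and *Col14a1* to the left, and 12 intervals cross 1.

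In epithelial-like cells *Col8a1* had a ratio of 1.21 (1.15 to 1.29), opposite in direction to that in fibroblast-like cells, and *Col18a1* 1.06 (0.961 to 1.16), *Col4a5* 0.918 (0.795 to 1.06) and *Col4a6* 0.971 (0.773 to 1.22). *Col6a1* was higher in the CpG ODN library, with 5.95 and 3.37 CPM, a ratio of 1.77 (1.43 to 2.20). *Col3a1*, *Col1a1* and *Col1a2* had ratios of 7.72, 3.51 and 3.11 there, from 8, 11 and 15 UMIs after LPS. The 16 fibroblast markers summed to 819.6 and 892.9 CPM in epithelial-like cells, and the part of RNA from fibroblasts in these ratios was not tested. In endothelial-like cells *Col4a1* and *Col4a2* had ratios of 0.762 (0.585 to 0.992) and 0.725 (0.533 to 0.984), and *Col15a1* 2.13 (1.25 to 3.75). In mural-like cells *Col4a1* had 0.733 (0.583 to 0.924), *Col18a1* 0.723 (0.542 to 0.969) and *Col3a1* 1.62 (1.17 to 2.27).

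Within fibroblast-like cells the collagen share varied from cell to cell. In the CpG ODN library collagen genes took from 0.0401% to 13.1% of the UMIs of a cell, with a median of 2.32%, and the lowest and highest 10% of cells lay under 0.732% and over 6.48%. In the LPS library the range was 0.0898% to 6.66%, with a median of 1.95%, and the lowest and highest 10% lay under 0.462% and over 4.64%. The ranges overlapped, and the cells with the highest shares were in the CpG ODN library, which also had more cells. Per 10000 UMIs of a cell, *Col3a1* had medians of 68.4 and 50.03, *Col1a2* 57.8 and 40.3 and *Col1a1* 48.4 and 38.3. *Col3a1* had 0 UMIs in 6 and 2 cells, *Col1a2* in 4 and 1, and *Col1a1* in 9 and 3. Some of the rarer members were concentrated in few cells. The 10% of cells with the most UMIs of a gene held 37.1% and 41.7% of *Col3a1*, but 88.2% and 79.1% of *Col8a1*, 79.4% and 83.5% of *Col11a1*, and 73.8% and 75.3% of *Col12a1*. Other rare members had lower shares, with 50.4% and 36.6% for *Col4a2*, 46.8% and 63.8% for *Col18a1* and 50.85% and 67.4% for *Col5a3*. A low count alone also raises this share. *Col8a1* had 0 UMIs in 198 of 238 and 39 of 54 cells.

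To compare spread at equal depth, cells were thinned to 1500 UMIs, which left 237 and 54 cells, and the variance of a gene's UMIs over cells was divided by their mean (Fano factor, 1 for counting alone). *Col3a1* had Fano factors of 17.4 and 11.3, *Col1a1* 10.8 and 8.44 and *Col1a2* 10.0 and 8.26. *Col11a1* had 3.19 and 2.50, *Col14a1* 2.23 and 1.92, *Col12a1* 2.07 and 3.63 and *Col8a1* 2.12 and 4.53, although each had a mean under 1 UMI per cell. Those of *Col5a1* (1.20 and 1.11) and *Col4a1* (1.16 and 1.44) were nearer to counting alone, also at means under 1 UMI. The factor depends on the mean of a gene and on depth, so it does not rank members of unlike level. With cells thinned to 3000 UMIs (173 and 53 cells), *Col3a1* had 33.3 and 18.2, *Col1a1* 20.1 and 12.8 and *Col8a1* 5.76 and 3.58. Across the cells thinned to 1500 UMIs, which share a library, *Col1a1* and *Col1a2* went together, with Spearman's rho of 0.83 over 237 cells and 0.76 over 54. *Col3a1* followed *Col1a2* with 0.70 and 0.53, and *Col3a1* and *Col8a1* had -0.21 and -0.31. The share of *Col1a1* among the UMIs of the type I pair, in the 175 and 45 cells with at least 20 of them, had a median of 47.1% and 48.9% and ranged from 8.00% to 74.3% and from 27.6% to 71.2%. Its SD over cells was 10.4 and 10.6 percentage points, where counting alone would give 7.01 and 6.47.

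Fibroblast-like cells were divided into 6 sub-clusters without the collagen genes, and members differed between them. Sub-cluster 5 (36 and 5 cells), led by *Grem1*, *Tnn* and *Crabp1*, had the highest collagen share, 3.98% and 3.76% of its UMIs. It carried 790.4 and 1013 CPM of *Col12a1*, a collagen of dense and loaded tissue, where sub-cluster 1 had 7.70 and 90.7 CPM and sub-cluster 4 had 29.1 and 49.1 CPM. Sub-cluster 3 was next to it with 260.4 and 257.1 CPM. Sub-cluster 5 was also high in *Col6a1* (1703 and 2027 CPM), *Col18a1* (372.7 and 619.2) and *Col16a1* (353.4 and 591.1), and low in *Col14a1* (115.7 and 0 CPM). Its LPS levels rest on few cells, with 18 of the 36 *Col12a1* UMIs in 1 cell. For *Col6a1*, *Col18a1* and *Col16a1* the top LPS cell of each gene held 47.2%, 50% and 52.4% of the UMIs. Sub-cluster 2 (55 and 10 cells), led by *Lpl* and *Osr1* with *Pi16* and *Lum*, had the most *Col3a1* (15146 and 13397 CPM) and the most *Col14a1* (666.0 and 951.2). Sub-cluster 1 (59 and 10 cells), led by the chemokine genes *Cxcl1* and *Ccl7* and by *Has1*, had 12667 and 10883 CPM of *Col3a1* and 0 UMIs of *Col8a1* in both libraries. Sub-cluster 3 (51 and 11 cells), led by *Chad*, *Myoc* and *Trf*, had the highest level of *Col8a1*, 373.3 and 771.2 CPM, and held 86 of the 136 and 63 of the 86 *Col8a1* UMIs. These came from 16 of 51 and 6 of 11 cells, with 43 and 28 of them in 1 cell. Without that cell, an alternative chosen after seeing the data, the levels were 196.0 CPM (141.9 to 264.0) and 469.7 CPM (327.2 to 653.3), the first overlapping the 160.6 CPM (104.0 to 237.2) of sub-cluster 5. Sub-cluster 4 (28 and 14 cells), led by the contractile genes *Acta2*, *Tagln* and *Myl9*, had a lower collagen share, 1.74% and 2.13%. Sub-cluster 6 (9 and 4 cells) was led by keratin genes and had the lowest share, 0.801% and 0.370%. It had a median of 17837 UMIs per cell, against 3623 to 4794.5 in the others, and 10 of its cells had over 2% keratin UMIs. Scrublet, whose calls were not relied on, marked 1 fibroblast-like cell in the CpG ODN library, with over 2% keratin UMIs, and 0 in the LPS library. Doublets in sub-cluster 6 were not tested in any other way.

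**Figure D4:**
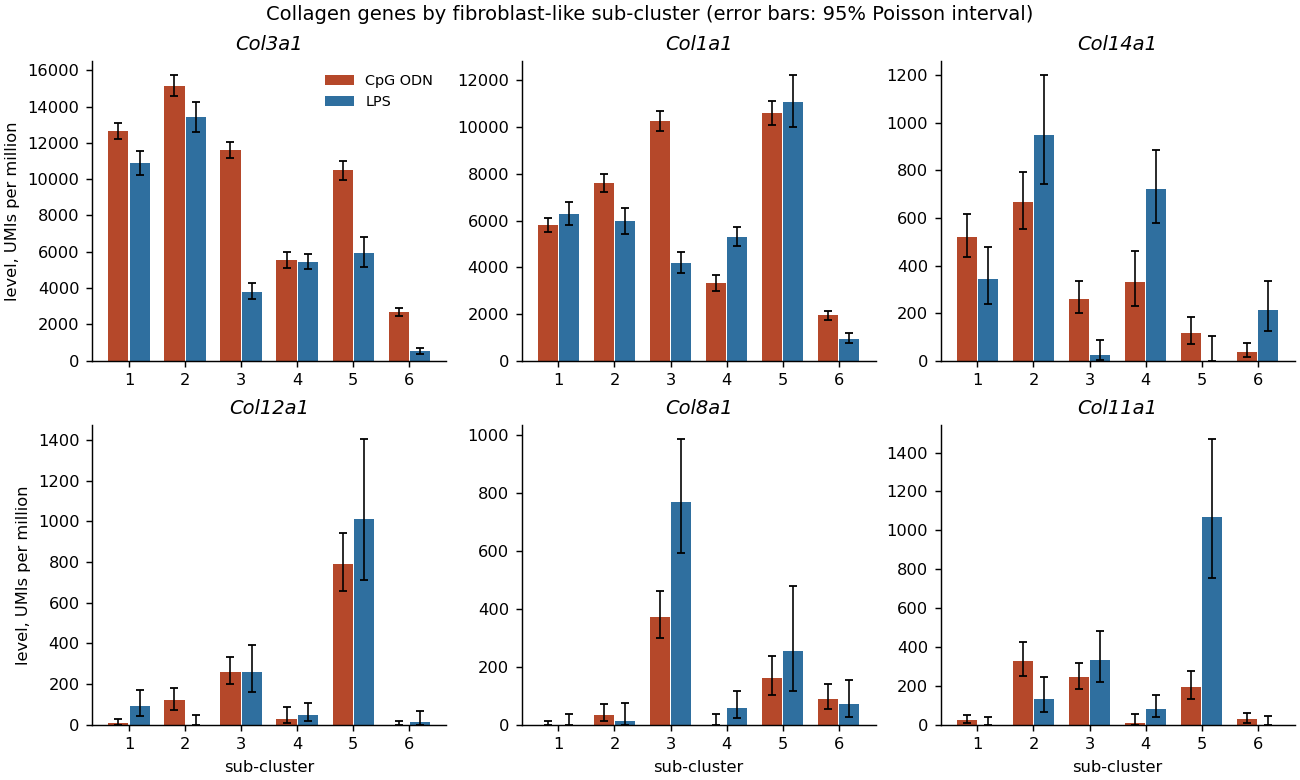
Level of 6 collagen genes (y axes, UMIs per 1000000 UMIs of the sub-cluster, from 0) in the 6 fibroblast-like sub-clusters (x axes) of the CpG ODN library (red) and the LPS library (blue). Bars are summed levels and error bars are exact Poisson intervals (95%). *Col12a1* is highest in sub-cluster 5 (790.4 and 1013 CPM, with 18 of 36 LPS UMIs in 1 cell) and *Col8a1* in sub-cluster 3 (373.3 and 771.2 CPM, with 43 of 86 and 28 of 63 UMIs in 1 cell) in both libraries.

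The difference between the libraries was not spread evenly over the sub-clusters. In sub-cluster 3 collagen took 3.89% of the UMIs in the CpG ODN library and 1.72% in the LPS library, a ratio of 2.27 (2.14 to 2.399), and single cells ranged from 0.466% to 12.1% (median 2.85%) and from 0.253% to 5.20% (median 1.52%). Ratios were 1.04 (1.00 to 1.09) in sub-cluster 1, 1.18 (1.13 to 1.24) in 2, 0.818 (0.770 to 0.869) in 4, 1.06 (0.999 to 1.13) in 5 and 2.17 (1.92 to 2.45) in 6. Without sub-cluster 3 the summed ratio was 1.17 (1.14 to 1.20), and without each of the others it was 1.33 to 1.44. With the 5 sub-clusters without keratins weighing the same it was 1.20. *Col3a1* had a ratio above 1 in 6 of 6 sub-clusters, from 1.01 (0.905 to 1.14) in sub-cluster 4 to 3.05 (2.71 to 3.44) in 3 and 5.11 (3.76 to 7.12) in the keratin-led 6. In sub-cluster 3 a single LPS cell held 176 of the 311 *Col3a1* UMIs, and without it the LPS level was 1851 CPM (1552 to 2191) in place of 3807 CPM. *Col1a2* was above 1 in 5 of 6 and *Col1a1* in 3 of 6, with 0.624 (0.546 to 0.713) for *Col1a1* in sub-cluster 4 and 2.46 (2.19 to 2.76) in 3. *Col14a1* went both ways, with 60 and 2 UMIs in sub-cluster 3 but 34 and 88 in sub-cluster 4. The LPS cells of a sub-cluster numbered 4 to 14, and these 54 cells came from 4 mice that cannot be told apart.

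**Figure D5:**
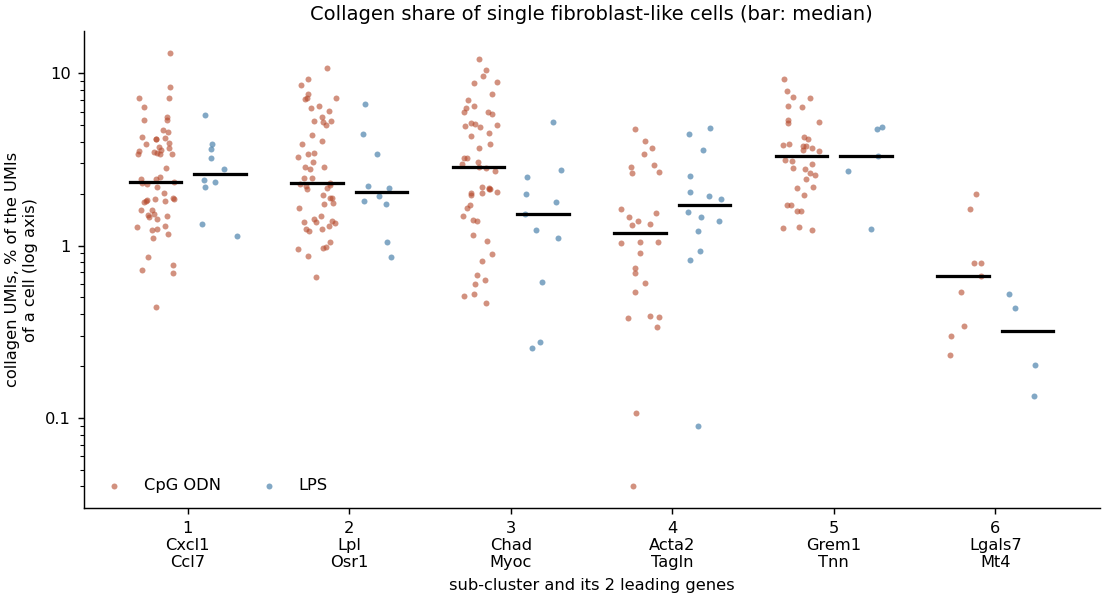
Collagen UMIs as a percentage of the UMIs of each fibroblast-like cell (y axis, logarithmic) by sub-cluster (x axis, with 2 leading genes), for 238 cells of the CpG ODN library (red) and 54 of the LPS library (blue). Each point is a cell and each bar a median. The libraries overlap in every sub-cluster but have medians of 2.85% and 1.52% in sub-cluster 3.

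Genes that process, link, bind or degrade collagen were given from lists of 51 genes, of which 36 had at least 50 UMIs in fibroblast-like cells. Of these, 0 were called in either direction, against the same 5.23% and 4.65% of all genes, and their median log2 ratio was -0.02. The median log2 ratio was 0.19 for hydroxylation and glycosylation, 0.13 for uptake and cleavage, -0.02 for cross-linking, -0.04 for folding and export, -0.06 for receptors and -0.17 for propeptide cleavage. *Serpinh1*, the collagen chaperone HSP47, had 898.2 and 986.3 CPM, a ratio of 0.911 (0.817 to 1.02), *Fkbp7* 130.1 and 124.5 CPM and the export gene *Mia3* 116.1 and 90.4 CPM. Among genes of prolyl and lysyl modification, *Ppib* had 538.6 and 624.7 CPM, *P4hb* 276.7 and 297.3 CPM and *P3h3* 125.7 and 146.6 CPM. *Pcolce2*, an enhancer of propeptide cleavage, had 469.6 and 689.0 CPM, a ratio of 0.682 (0.594 to 0.783) that lies just short of the 1.5-fold limit, and *Pcolce* had 361.4 and 411.8 CPM and the N-propeptidase *Adamts2* 136.2 and 150.7 CPM. The cross-linking genes *Lox*, *Loxl1* and *Loxl2* had ratios of 0.991 (0.798 to 1.24), 0.856 (0.691 to 1.06) and 0.984 (0.747 to 1.31). Of the receptors, *Itgb1* had 276.7 and 291.3 CPM, *Ddr2* 188.5 and 212.9 and *Itga1* 64.6 and 40.2. Of the genes of cleavage and uptake, *Mmp2* had 1400 and 1388 CPM and *Mmp14* 191.2 and 180.8. *Ctsk*, the cathepsin that cuts the collagen triple helix and the enzyme the study was about, had 426.0 and 337.5 CPM, a ratio of 1.26 (1.06 to 1.51).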

How the data were processed

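To describe the collagen genes, scRNA-seq data of 2 libraries of mouse gingiva were used, 1 from CpG ODN and 1 from LPS treated mice. The authors made the deposited counts with Cell Ranger (version 4.0.0 per the labels and headers), as whole UMI counts per gene and barcode with no normalization. The genome build is not given in the sources used here, and coordinates came from GENCODE M21 (GRCm38) by gene ID, with promoter sequences from RefSeq. Cells with at least 800 genes were kept, and the 1331 and 739 barcodes under that limit held 23.5% and 74.8% of their UMIs in hemoglobin genes. On counts set to a total of 10000 in every cell and logged, 2000 variable genes, 30 principal components and 15 neighbours gave Leiden clusters at resolution 1.0 (scanpy 1.11.5, leidenalg 0.10.2). The collagen genes, *Col7a1*, *Col17a1* and the collagen pathway genes took no part. A cluster was named by at least 3 markers found in 20% of its cells and 2 times higher than elsewhere. Fibroblast-like cells were clustered again (10 components, resolution 0.5). Scrublet (scanpy) marked 17 and 3 cells, 0.348% and 0.235%, under the 0.5% taken here as a working minimum, so its calls were not relied on and no doublets were removed.

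Levels were sums of UMIs, with exact Poisson intervals. Ratios had exact conditional binomial intervals and shares exact Clopper-Pearson intervals, all at 95% (scipy 1.17.1). UMIs of 1 library are not independent animals, and with 1 library per ligand no test was run and no p-value is given. A count of 0 in a cell class was given an upper limit of 3 counts. A count of 0 in a cluster was given the upper end of its exact Poisson interval, which is a higher limit. Of the genes, those with at least 100 UMIs in fibroblast-like cells, those highest in another class with at least 50 UMIs, and called genes were named with values, with the 3 highest genes of each pathway list. Others, such as *Col28a1*, *Col25a1*, *Col13a1*, *Col10a1*, *Col4a5*, *Col4a6* and *Col8a2*, were chosen after their values were seen. The members, marker lists and pathway lists were chosen with earlier results of these data known. The ratio script was tested on simulated data. Alternatives changed the gene filter, the clustering, the cells left out, the averaging, and the minimum and fold of a call.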

Additional observations from a re-analysis of the deposited data

Results flagged for a closer look

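Collagen UMIs also appeared in barcodes that the filter of 800 genes left out of every comparison, which is what set them apart for a closer look. In the CpG ODN library these 1331 barcodes held 512 collagen UMIs (317.0 CPM, 290.1 to 345.7), among them 162 of *Col3a1*, 94 of *Col1a2* and 89 of *Col1a1*. A collagen UMI was found in 86 of them, and the 10 barcodes with the most held 53.5%. In the LPS library the 739 barcodes held 129 collagen UMIs (85.9 CPM, 71.7 to 102.0), among them 39 of *Col3a1*, 24 of *Col1a2* and 22 of *Col1a1*. There a UMI was found in 21 barcodes, and 91.5% lay in 10 of them. With the filter lowered to 200 genes, fibroblast-like cells numbered 270 and 58 in place of 238 and 54.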

How the results depend on the processing

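No paired analysis was possible because CpG ODN and LPS were each sequenced as 1 pool. The summed collagen ratio of fibroblast-like cells (1.333) stayed above 1 in all 13 alternatives run. It was 1.218 with at least 1200 detected genes, 1.268 with at least 200, 1.238 with each library clustered on its own, 1.29 without cells of over 2% keratin UMIs and 1.385 as a mean over cells. In 2 alternatives chosen after seeing the data it was 1.604 in cells of 4000 to 12000 UMIs and 1.197 with the sub-clusters weighing the same. The 3 members called higher became 0 with at least 1200 genes, 0 with separate clustering, 0 with a 2-fold limit and 5 in cells of 4000 to 12000 UMIs (*Col12a1*, *Col18a1*, *Col1a1*, *Col1a2* and *Col3a1*). The 0 called lower became 1 with at least 200 genes, 1 with separate clustering, 1 without keratin cells and 1 in cells of 4000 to 12000 UMIs, each time *Col8a1*, 2 as a mean over cells (*Col8a1* and *Col23a1*) and 1 with a minimum of 20 UMIs (*Col10a1*). The fibroblast-like share of collagen UMIs after CpG ODN was 75.6% with at least 200 genes and 77.02% without keratin cells. In all, 58 of these values stayed within their counting interval or 1.5 times, 19 moved and 0 reversed, and of the values of single genes 199 stayed, 27 moved and 0 reversed. Some alternatives could change little: Leiden resolutions of 0.5 and 2.0 gave the same 238 and 54 fibroblast-like cells in number. Leaving out the Scrublet calls removed 1 fibroblast-like cell in the CpG ODN library and 0 in the LPS library. The cause of the moves was not tested. Over 12 alternatives *Col3a1* ranged from 1.37 to 1.79 and *Col8a1* from 0.468 to 0.697, while *Col5a1* was above 1 in 7. The LPS values rest on 54 fibroblast-like cells, and the spread between mice is unknown.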
